A study of Schizosaccharomyces pombe with 28 samples.

Results

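The contractile ring and cytokinesis genes described here are cdc15, imp2, mid1, rng2, cdc4, cdc8, cdc12, myo2, rlc1 and chs2 of the fission yeast Schizosaccharomyces pombe. They were picked by name: each of the 10 was matched by its current symbol in the array annotation, and each had 1 probe set, so the group is 10 of the 2899 fission yeast genes that could be named. All 10 were measured in all 28 arrays, and the lowest signal of any of them in an array was at least 48.9 times the background of that array, so no filter on low values removed a member. The study compared wild type (WT) cells with cells lacking zfs1, cbf12 or both. Project 488 held 3 WT and 3 zfs1-null samples, and project 529 held 5 WT and 5 zfs1-null samples. Project 582 had 4 strains with 3 samples per strain: WT, zfs1-null, cbf12-null, and a strain with both genes deleted, called the double null here. All 8 groups were grown without treatment in the rich medium YES (yeast extract with supplements) at 30 °C to an OD600 of about 1.0, in mid-log phase, and polyA RNA was measured. They are described as biological replicates by the submitters, with no statement on separate cultures. The p-values therefore measure the spread between these samples, part of which may be technical.

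Fission yeast divides by building a ring of actin and myosin at the cell middle, tightening it and laying down a septum behind it. The anillin Mid1 marks the place as cortical nodes. These gather the IQGAP protein Rng2, the F-BAR membrane scaffold Cdc15, and the myosin II heavy chain Myo2 with its light chains Cdc4 and Rlc1. They also gather the formin Cdc12, which nucleates actin filaments that the tropomyosin Cdc8 coats. Imp2 is a second F-BAR scaffold of the ring. Chs2, a chitin synthase homologue, is found at the ring and septum. Zfs1, the fission yeast relative of tristetraprolin, uses its zinc fingers to bind mRNAs rich in A and U and speeds up their breakdown. Cbf12, a CSL family transcription factor, is known for its part in cell adhesion. RNA of whole cultures was measured, so a larger share of cells in division and more transcript per dividing cell cannot be told apart.

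The deleted genes went with the labels. The zfs1 signal was between 389 and 630.0 in the strains that carry the gene and no higher than 7.70 in those that lack it. The cbf12 signal was at least 170.2 in strains that carry the gene and no higher than 0.670 in those that lack it. Among samples that carry cbf12, its signal was higher without zfs1. In project 488 the mean was 377 in WT and 911 in zfs1-null samples. It was 280 and 628 in project 529, and 184 and 464 in project 582. The samples did not overlap in any project, and the part of this rise in the results below was not tested. Array background, the 95th percentile of the budding yeast probe sets on the same array, lay between 3.65 and 5.44. No array pair held identical values, and Pearson's r between replicates of a group was 0.973 to 0.997 across genes. A signal is a brightness that depends on the probes, so levels are compared here within a gene and never between genes. Of the 6 genes of M mating type cells listed as markers, the pheromone genes mfm1, mfm2 and mfm3 fell with loss of zfs1 over the 3 projects combined, by 1.77, 0.64 and 0.61 on the log2 scale, and mam1, mam2 and mam3 did not pass the test. In that fit 18.3% of all genes were called lower. By project, 3 of the 6 fell in project 488 (9.8% of all genes) and 4 fell in project 582 (7.14%). In project 529, 2 rose and 3 fell (25.7% and 16.5%). A test of whether the effect differed between projects called 3 of the 6, beside 19.7% of all genes. The summed signal of the 6 was 3550.2 to 3591 in WT and 2986 to 3303 in zfs1-null samples of project 488. It was 4479.8 to 4659 and 4220.3 to 4988 in project 529, and 5290.2 to 5650.4 and 3303 to 3505 in project 582, where cbf12-null samples had 4791 to 5257 and double null samples 3319 to 4055. Of the 3 P cell genes, map2 fell by 0.30 and map4 rose by 0.24 with loss of zfs1 over the 3 projects combined, and their summed signal, with map3, was 1558 to 2074 over all samples. The test between projects called 2 of these 3. With loss of cbf12, mfm1 and mam1 fell by 0.67 and 0.35, mfm3 rose by 0.39, and none of the P cell genes passed. No marker gene of either list was at background in any sample, and their part in the results below was not tested.

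**Figure D1:**
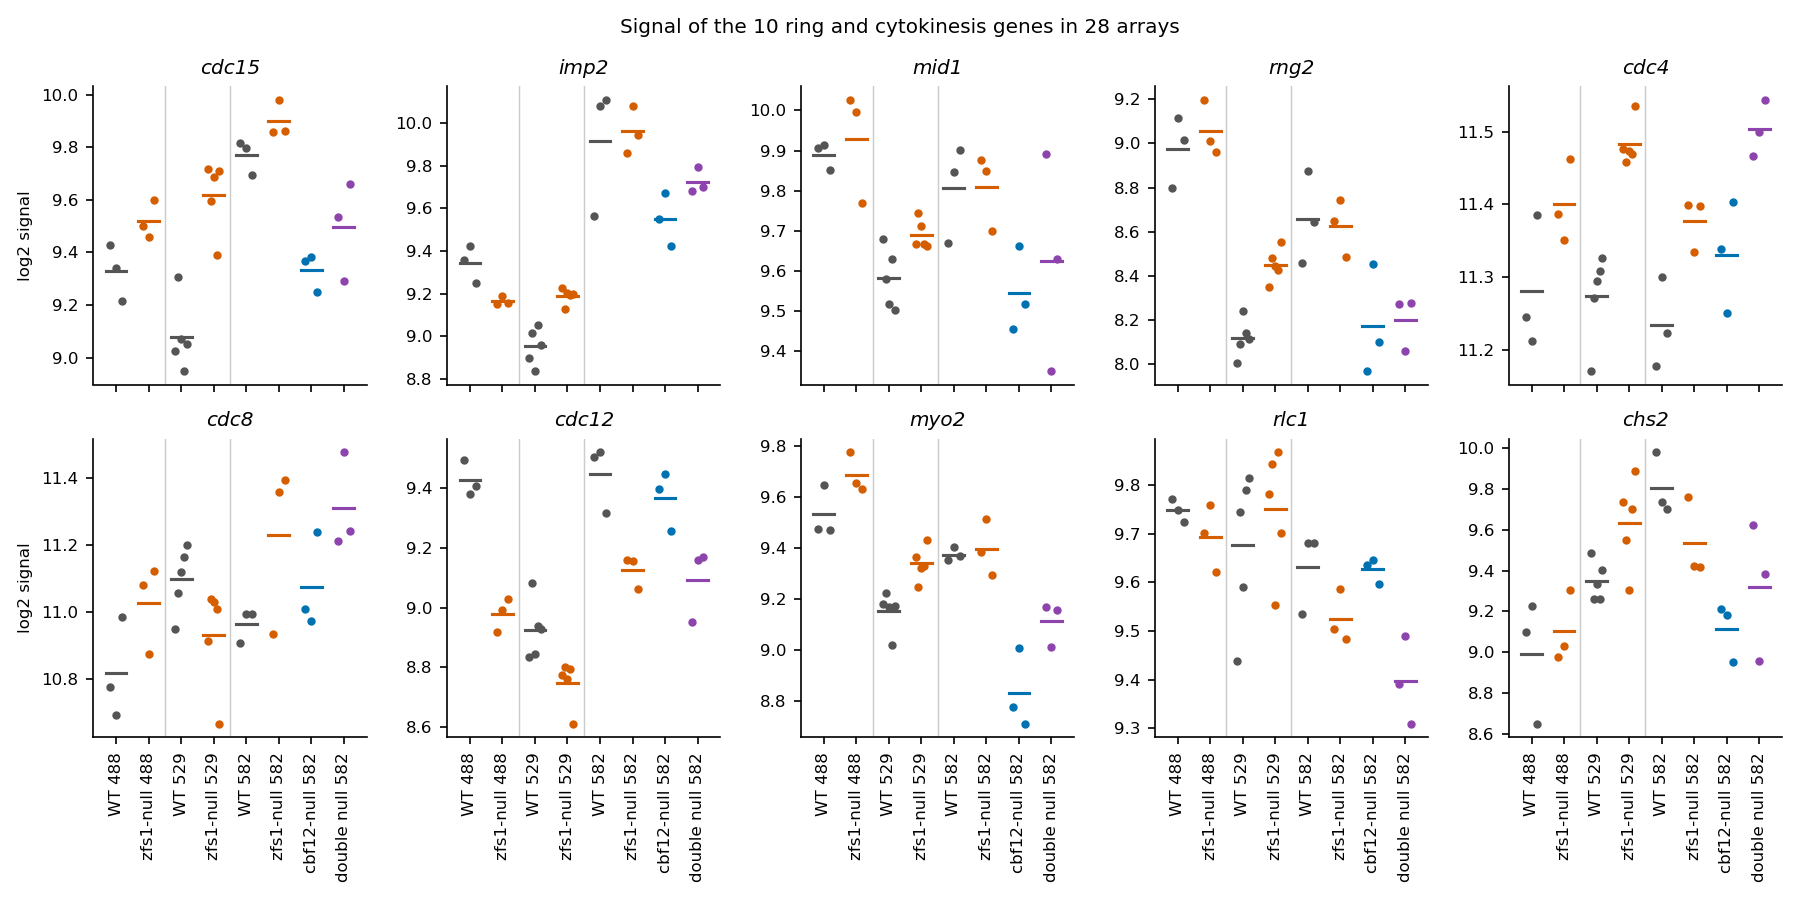
Log2 signal of each of the 10 genes (y axis, log2 of the deposited signal) in the 8 groups of strain and project (x axis). Points are single arrays and bars are group means, with grey lines between projects. The cdc15 points of zfs1-null samples lie above those of WT in each project and the cdc12 points below.

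With loss of zfs1, and with the 3 projects fitted together, 4 of the 10 genes rose, 1 fell and 5 did not pass the test. Across all genes, 23.4% were called higher and 18.3% lower in this comparison, so the members' 4 and 1 of 10 are not set apart from the array by their number. The genes that rose were cdc15, by 0.33 ± 0.06 on the log2 scale (± standard error throughout), rng2 by 0.17 ± 0.06, cdc4 by 0.17 ± 0.03 and myo2 by 0.13 ± 0.04. The formin gene cdc12 fell by 0.29 ± 0.05. The median change was 0.08 over the 10 genes and 0.02 over all genes. The test was limma's moderated test on log2 signal with project as a term, adjusted over all 2899 genes by the Benjamini-Hochberg method, and a gene is called at an adjusted p below 0.05.

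Among the scaffolds, cdc15 had the largest change. Its signal in project 488 was 689, 649 and 594 in WT and 724, 704 and 775 in zfs1-null samples. In project 529 it was 521, 633, 537, 495 and 531 in WT and 842, 774, 824, 671 and 837 in zfs1-null samples. In project 582 it was 901.5, 890.3 and 828 in WT and 928, 1011 and 931 in zfs1-null samples. In none of the projects did the WT and zfs1-null samples overlap, and the highest WT sample came nearest to the lowest zfs1-null sample in project 488. The combined change of 1.26-fold had an adjusted p of 4.6e-05 with limma (95% interval 0.21 to 0.45 on the log2 scale) and ranked 271st of 2899 by size. Within projects, cdc15 rose by 0.54 ± 0.07 in project 529 (adjusted p = 4.3e-05 with limma). The values of 0.19 ± 0.08 in project 488 (adjusted p = 0.105 with limma) and 0.13 ± 0.10 in project 582 (adjusted p = 0.391) did not pass, with intervals of 0.02 to 0.36 and -0.07 to 0.33.

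The second F-BAR gene, imp2, had estimates of opposite sign in different projects. In project 488 its signal was 656, 686.5 and 609 in WT and 569, 583 and 570.4 in zfs1-null samples. In project 529 it was 478, 517, 458, 531 and 498 in WT and 598, 559, 590.0, 586 and 587 in zfs1-null samples. The zfs1-null samples were all below WT in project 488 and all above WT in project 529, while in project 582 the groups overlapped, with 757, 1081 and 1105 in WT and 929, 1081 and 985 in zfs1-null samples. It rose by 0.24 ± 0.05 in project 529 (adjusted p = 0.0016 with limma), and the values of -0.18 ± 0.07 in project 488 (adjusted p = 0.102) and 0.04 ± 0.12 in project 582 (adjusted p = 0.851) did not pass. The combined value was 0.07 ± 0.06 (adjusted p = 0.362, interval -0.05 to 0.20).

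The gene of the IQGAP scaffold, rng2, was called in the combined comparison with an adjusted p of 0.0327 (limma). Its signal in project 529 was 256, 272, 302, 282 and 277 in WT and 326, 358, 348, 343 and 375 in zfs1-null samples, and these did not overlap. In project 488, WT samples had 445, 554 and 517 and zfs1-null samples 588, 516 and 498, and in project 582 WT had 351, 469 and 399.9 and zfs1-null 401, 429 and 359, with overlap in both. The rise of 0.33 ± 0.06 in project 529 passed (adjusted p = 0.00036 with limma), and the values of 0.08 ± 0.10 in project 488 and -0.03 ± 0.14 in project 582 did not (adjusted p = 0.593 and 0.913). The combined call was lost with all probe sets of the array tested (adjusted p = 0.0612) and in 11 of the 22 fits that left out 1 sample, with an adjusted p of up to 0.0633, reached without WT replicate 1 of project 488. The anillin gene mid1, which sets the position of the ring, did not pass in any project. Its combined value was 0.06 ± 0.04 (adjusted p = 0.210, interval -0.02 to 0.14), and its WT and zfs1-null samples overlapped in each project.

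Of the 3 myosin II genes, the heavy chain myo2 and the essential light chain cdc4 rose and the regulatory light chain rlc1 did not pass. The cdc4 signal was 2427, 2372 and 2676 in WT and 2677.5, 2613 and 2823 in zfs1-null samples of project 488. It was 2306, 2473, 2513, 2536 and 2568 in WT and 2849, 2815, 2844, 2836 and 2967 in zfs1-null samples of project 529. In project 582 it was 2316, 2522 and 2392 in WT and 2701, 2583 and 2698 in zfs1-null samples. The groups did not overlap in projects 529 and 582, and overlapped in project 488 through a high WT sample. The combined rise of 1.12-fold had an adjusted p of 3.3e-05 with limma. The estimates were alike in size, 0.12 ± 0.06 in project 488, 0.21 ± 0.03 in project 529 and 0.14 ± 0.06 in project 582, and that of project 529 passed on its own (adjusted p = 0.00022 with limma, against 0.201 and 0.160).

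The myo2 signal was 712, 801 and 710.0 in WT and 876, 807 and 793 in zfs1-null samples of project 488. In project 529 it was 580.2, 597, 575, 519 and 576 in WT and 659, 608, 640.1, 643 and 691 in zfs1-null samples, which did not overlap. In project 582, WT samples had 653, 676 and 661 and zfs1-null samples 668, 731 and 628, so that the groups lay on top of each other. The combined rise was 1.10-fold (adjusted p = 0.00872 with limma), and in project 529 the rise was 0.19 ± 0.05 (adjusted p = 0.00896). The values of 0.16 ± 0.07 in project 488 and 0.02 ± 0.10 in project 582 did not pass (adjusted p = 0.161 and 0.905 with limma). The call in project 529 was lost under equal array medians (adjusted p = 0.0508) and quantile normalisation (0.0755). For rlc1 the combined value was -0.01 ± 0.05 (adjusted p = 0.871), with an interval of -0.11 to 0.09 on the log2 scale. Its signal ran from 694 to 901 in WT and from 715 to 934 in zfs1-null samples, and the groups overlapped in each project.

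On the actin side, the formin gene cdc12 fell and the tropomyosin gene cdc8 did not pass. The cdc12 signal was 721, 667 and 678 in WT and 483, 509.6 and 523 in zfs1-null samples of project 488. In project 529 it was 457, 542, 459.6, 491 and 487 in WT and 437, 446, 434, 444 and 391 in zfs1-null samples. In project 582 it was 726, 734 and 637.5 in WT and 572, 571 and 534 in zfs1-null samples. All zfs1-null samples lay below all WT samples of their project, by a clear gap in projects 488 and 582 and by a narrow one in project 529. The combined fall of 1.22-fold had an adjusted p of 1.1e-05 with limma and ranked 346th by size. It was the member called in each project taken alone, with -0.45 ± 0.07 in project 488 (adjusted p = 0.00186 with limma), -0.18 ± 0.06 in project 529 (adjusted p = 0.0246) and -0.32 ± 0.10 in project 582 (adjusted p = 0.0419). The call in project 582 was lost under equal array medians (adjusted p = 0.0604), under quantile normalisation (0.101) and with all probe sets tested (0.0719). It was also lost in 7 of 12 fits that left out 1 sample, with an adjusted p of up to 0.167 without zfs1-null replicate 3. In project 529 it was lost without WT replicate 2 (0.0666) or zfs1-null replicate 5 (0.0599).

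The cdc8 signal was 1753, 1655 and 2025 in WT and 2166, 1877 and 2228 in zfs1-null samples of project 488. In project 529, WT samples had 1976.5, 2131, 2224, 2296 and 2354 and zfs1-null samples 1929, 2105.5, 2089, 2059.7 and 1624. In project 582, WT samples had 1918, 2037 and 2039.5 and zfs1-null samples 1958, 2625 and 2691. The mean of zfs1-null samples was above that of WT in projects 488 and 582 and below it in project 529, with overlap in each. None of the 3 values passed: 0.21 ± 0.09 in project 488 (adjusted p = 0.117 with limma), -0.17 ± 0.07 in project 529 (adjusted p = 0.0607) and 0.27 ± 0.11 in project 582 (adjusted p = 0.139). The combined value was 0.05 ± 0.07 (adjusted p = 0.539, interval -0.08 to 0.19).

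For chs2, the signal in project 529 was 717, 613, 644.5, 614 and 677 in WT and 852, 748, 631.5, 832 and 947 in zfs1-null samples. All zfs1-null samples but replicate 3 were above WT. The rise of 0.29 ± 0.09 passed there (adjusted p = 0.0179 with limma), and the call was lost under quantile normalisation (adjusted p = 0.0789). In project 488 the signal was 549, 598 and 402 in WT and 503, 524 and 633 in zfs1-null samples, and in project 582 it was 1008, 851 and 832.5 in WT and 867, 686 and 684 in zfs1-null samples. Both pairs of groups overlapped, and the values of 0.11 ± 0.14 and -0.27 ± 0.15 did not pass (adjusted p = 0.607 and 0.261 with limma). The combined value was 0.09 ± 0.08 (adjusted p = 0.414, interval -0.08 to 0.26).

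**Figure D2:**
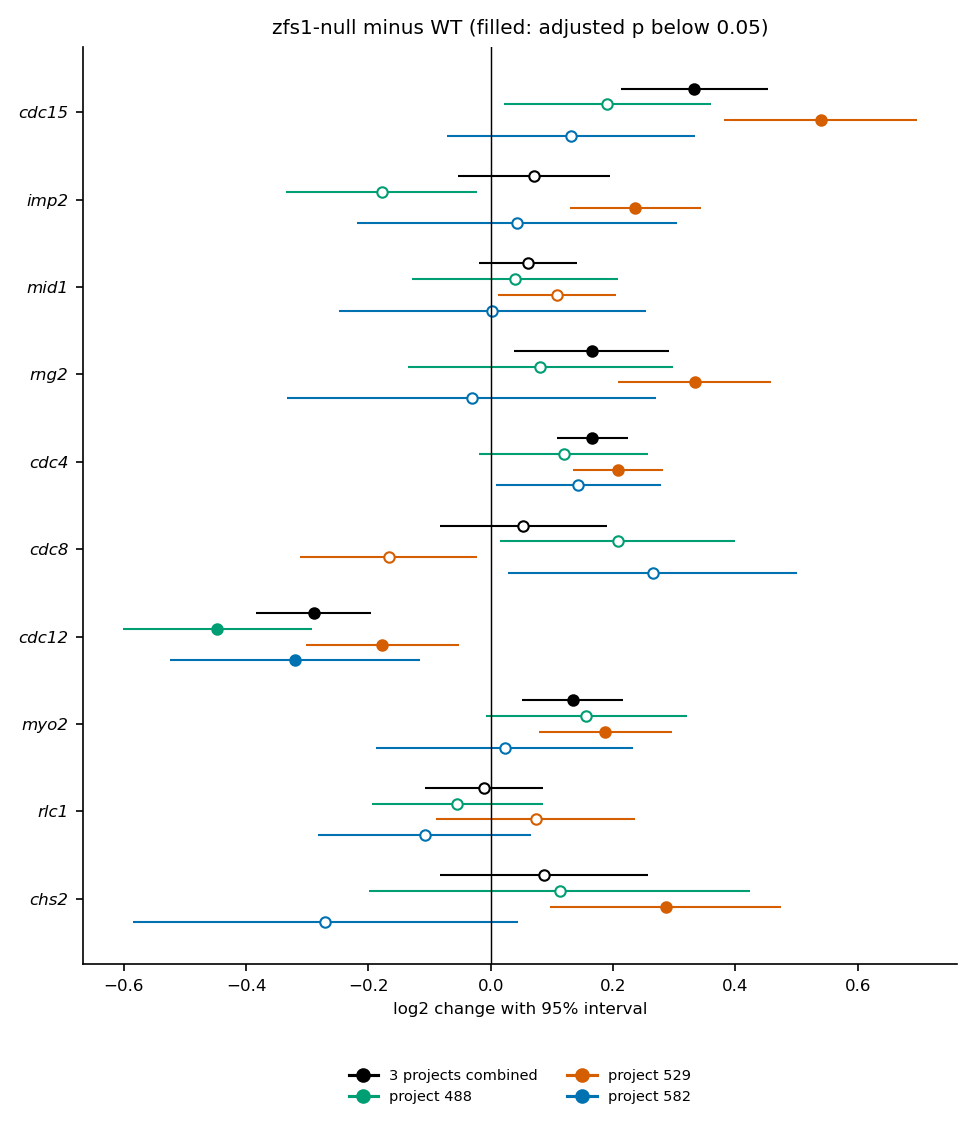
Log2 change of each gene in zfs1-null against WT samples (x axis) with 95% intervals, for the 3 projects combined and for each project. Filled points have an adjusted p below 0.05. The cdc12 points are filled and left of 0 in all 4 fits, while imp2, cdc8 and chs2 have points on both sides of 0.

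By project, each with its own share of the samples in the combined fit, loss of zfs1 called 1 member in project 488, 7 in project 529 and 1 in project 582. In project 488 the call was the fall of cdc12, where 9.87% of all genes were called higher and 9.8% lower. In project 529, 6 members rose (cdc15, imp2, rng2, cdc4, myo2 and chs2) and cdc12 fell, where 25.7% of all genes were called higher and 16.5% lower. In project 582 the call was again the fall of cdc12, where 4.14% were called higher and 7.14% lower. The members' median change was 0.10, 0.20 and 0.01 in the 3 projects, beside 0.01, 0.03 and -0.00067 over all genes. Groups did not overlap for 3, 6 and 3 of the 10 members, beside 38.1%, 29.5% and 36.1% of all genes.

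A test of the difference itself, limma's moderated F test of the strain by project terms, called 3 of the 10 genes, beside 19.7% of all genes. They were cdc15 (adjusted p = 0.0155), cdc8 (adjusted p = 0.0299) and imp2 (adjusted p = 0.0490). For cdc15 the rise differed in size, and for imp2 and cdc8 the projects differed in sign. The test did not pass for chs2 (adjusted p = 0.0595), rng2 (0.0816), cdc12 (0.0994), myo2 (0.350), rlc1 (0.380), cdc4 (0.515) and mid1 (0.633). None of the 3 calls was kept under quantile normalisation, where 0 members passed with limma and 4 had an unadjusted p below 0.05. The imp2 call was also lost under equal array medians (adjusted p = 0.0830), with all probe sets (0.0818), with an offset of 16 added to the signal (0.0514) and without an intensity trend (0.0533). The cdc15 call was kept in all 22 fits without 1 sample, the cdc8 call in 16 and the imp2 call in 5.

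A second formin gene, for3, was higher within each project in the strains lacking zfs1, where cdc12 was lower. For3 nucleates the actin cables that run along the cell, and its gene rose by 0.64 ± 0.05 with loss of zfs1 (adjusted p = 1.7e-11 with limma, 3 projects combined). The for3 signal was 205 ± 0.68 (SD, n = 3) in WT and 315 ± 7.89 (SD, n = 3) in zfs1-null samples of project 488. It was 165 ± 14.6 and 261 ± 13.9 (SD, n = 5 each) in project 529. In project 582 it was 246 ± 9.08 in WT, 378 ± 20.5 in zfs1-null, 218 ± 7.96 in cbf12-null and 347 ± 31.0 in double null samples (SD, n = 3 each). The strains without zfs1 were above those with it in each project, with no overlap, where for cdc12 the same strains were below. The cdc12 signal in project 582 was 674, 698 and 612 in cbf12-null and 495, 571 and 575 in double null samples.

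**Figure D3:**
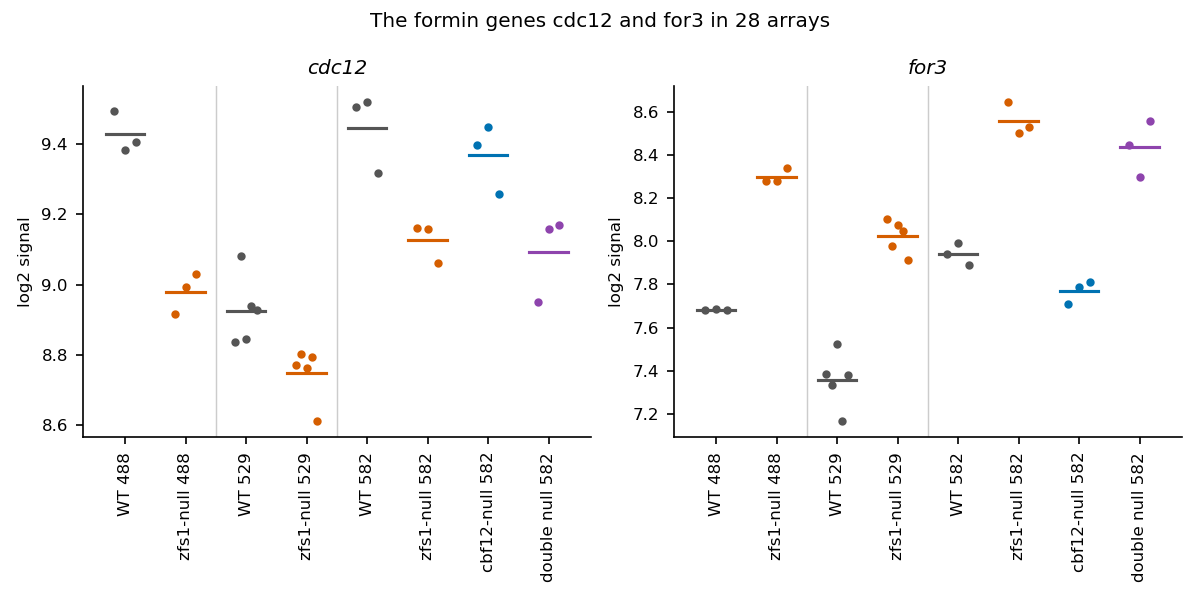
Log2 signal (y axis) of the formin genes cdc12 and for3 in the 8 groups (x axis). Points are single arrays and bars are group means. Strains lacking zfs1 are lower for cdc12 and higher for for3 within each project, and cbf12-null samples lie beside WT for cdc12.

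Loss of cbf12 in cells that kept zfs1 was measured in project 582, against the same WT samples as the zfs1-null and double null strains there. Of the 10 genes, 5 fell, 0 rose and 5 did not pass, where 18.9% of all genes were called lower and 9.18% higher. The genes that fell were chs2, by 0.69 ± 0.15 on the log2 scale, myo2 by 0.54 ± 0.10, rng2 by 0.48 ± 0.14, cdc15 by 0.44 ± 0.10 and imp2 by 0.37 ± 0.12. The members' median was -0.32, beside -0.07 over all genes. With arrays set to equal medians the median over all genes moved to 0.04 and the balance of calls over all genes turned, from 266 higher and 549 lower to 434 higher and 272 lower. Of the 5 members, 4 kept their calls, without imp2. The adjusted p-values, from limma's fit of the 4 strains, were 0.00087 for myo2, 0.00296 for chs2, 0.00322 for cdc15, 0.0194 for rng2 and 0.0358 for imp2.

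The cbf12-null signals of cdc15 were 661, 667 and 609, against 901.5, 890.3 and 828 in WT. Those of myo2 were 439, 515 and 419 against 653, 676 and 661, and those of rng2 were 250.4, 351 and 274 against 351, 469 and 399.9. The cdc15 and myo2 groups were well apart, and the rng2 groups touched, with the highest cbf12-null sample level with the lowest WT sample. The chs2 signal was 594, 580.3 and 495 in cbf12-null samples against 1008, 851 and 832.5 in WT, with no overlap. The imp2 signal was 750.5, 814 and 686 against 757, 1081 and 1105, which overlapped through a low WT sample. The mid1 signal was 702, 809.5 and 733 against 814, 921 and 957 with no overlap, but its change of -0.26 ± 0.12 did not pass (adjusted p = 0.107 with limma, interval -0.51 to -0.01). The remaining 4 genes, cdc4, cdc8, cdc12 and rlc1, had values of 0.10, 0.11, -0.08 and -0.01. Their adjusted p was 0.256, 0.482, 0.564 and 0.963 with limma, and their groups overlapped. Without overlap were 5 of the members, rng2 among them, beside 47.2% of all genes.

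For 3 of the genes that fell, WT samples of project 582 were the highest of the WT groups. WT samples had a mean cdc15 signal of 873 ± 39.7 (SD, n = 3) in project 582, 644 ± 47.3 (SD, n = 3) in project 488 and 543 ± 52.8 (SD, n = 5) in project 529. For imp2 the WT means were 981, 651 and 496, and for chs2 897, 516 and 653, in the same order of projects. For myo2 they were 664, 741 and 569 and for rng2 407, 505 and 278, so that project 488 was higher. The zfs1-null samples of project 582 were also the highest of their strain for cdc15 and imp2, at 957 and 998. With the WT level of project 582 estimated without its WT samples, from its zfs1-null samples and the zfs1 effect in the other projects, 2 of the 5 calls were kept. That estimate takes the zfs1 effect to be equal in all projects, which the F test above did not bear out for cdc15 and imp2, so the values below depend on it. For chs2 the F test did not pass (adjusted p = 0.0595), but its zfs1 estimates differed in sign, 0.29 in project 529 and -0.27 in project 582. Its value below therefore depends on that assumption too. The calls kept were myo2 at -0.39 ± 0.10 (adjusted p = 0.00415 with limma) and imp2 at -0.33 ± 0.11 (adjusted p = 0.0360). The values for cdc15, rng2 and chs2 became -0.16, -0.21 and -0.20 (adjusted p = 0.413, 0.278 and 0.475). The rng2 call was also lost without WT replicate 2 or cbf12-null replicate 1 or 3, with an adjusted p of up to 0.101. The imp2 call was lost without WT replicate 2 or 3, zfs1-null replicate 3 or cbf12-null replicate 1 or 3, with an adjusted p of up to 0.147.

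In cells that lacked zfs1, the same deletion was followed through the double null against the zfs1-null samples. The gene cdc15 fell by 0.41 ± 0.10 (adjusted p = 0.0138 with limma), from 928, 1011 and 931 to 741, 627 and 809. That was 1 member of 10, where 5.76% of all genes were called lower and 3.24% higher, and the groups did not overlap. The call was lost without zfs1-null replicate 2 (-0.37, adjusted p = 0.0803). The values for rng2 (-0.43 ± 0.14), myo2 (-0.28 ± 0.10), imp2 (-0.24 ± 0.12) and chs2 (-0.21 ± 0.15) did not pass, with adjusted p of 0.0756, 0.0867, 0.232 and 0.362. The double null signals of rng2 were 309, 266 and 309.6 and those of myo2 575, 516 and 570.4, all below the zfs1-null samples of the same project. Groups did not overlap for 5 of the 10 members here, beside 30.9% of all genes. This comparison has no WT sample in it.

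Loss of zfs1 in cells that lacked cbf12, read as the double null against the cbf12-null samples, called 4 of the 10 genes. Higher were myo2 (0.28 ± 0.10, adjusted p = 0.0396 with limma) and cdc4 (0.17 ± 0.06, adjusted p = 0.0469), where 18.8% of all genes were called higher. Lower were cdc12 (-0.27 ± 0.10, adjusted p = 0.0380) and rlc1 (-0.23 ± 0.08, adjusted p = 0.0408), where 15% were called lower. The cdc4 signal was 2589, 2437 and 2709.6 in cbf12-null and 2829.9, 2895 and 2986 in double null samples. The rlc1 signal was 796, 801 and 774 in cbf12-null and 672, 719 and 634 in double null samples. Groups did not overlap for these 4 genes and for imp2, whose value of 0.18 ± 0.12 did not pass (adjusted p = 0.277), beside 44.2% of all genes. The 4 calls sit near the threshold: 1 was kept under quantile normalisation (myo2) and 0 with all probe sets tested, where 5 members had an unadjusted p below 0.05 with limma, and between 0 and 5 members passed when 1 sample was left out.

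The double null against WT called 7 of the 10 genes, with cdc4 (0.27 ± 0.06, adjusted p = 0.00496 with limma) and cdc8 (0.35 ± 0.11, adjusted p = 0.0245) higher, where 15.5% of all genes were called higher. Lower were cdc12 (-0.35 ± 0.10, adjusted p = 0.0111), chs2 (-0.48 ± 0.15, 0.0201), rng2 (-0.46 ± 0.14, 0.0212), rlc1 (-0.24 ± 0.08, 0.0351) and cdc15 (-0.27 ± 0.10, 0.0353), where 19.7% were called lower. The value for myo2 was -0.26 ± 0.10 (adjusted p = 0.0505). The double null signals of cdc8 were 2372, 2852 and 2422, all above WT, and those of chs2 were 788, 497 and 669, all below WT and widely spread. Groups did not overlap for 8 of the 10 members, beside 41.1% of all genes. When the WT level was estimated from other samples as before, cdc4 (0.30 ± 0.07, adjusted p = 0.00134 with limma) and cdc12 (-0.31 ± 0.10, 0.0298) kept their calls, while cdc15 and chs2 moved to 0.0030 and 0.0087. Under quantile normalisation 0 members were called with limma, and 2 had an unadjusted p below 0.05. Under equal array medians and with all probe sets tested, 5 were called. Lost in both settings were cdc15 (adjusted p = 0.133 and 0.0691 with limma) and rlc1 (0.205 and 0.0845). The rlc1 call was kept in 7 of 12 fits that left out 1 sample.

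Whether the effect of either deletion depended on the other was tested by the interaction term of the 4 strains. It called 0 of 10 genes with limma, beside 9.76% of all genes, and 1 member, chs2, had an unadjusted p below 0.05. The chs2 interaction was 0.48 ± 0.21 (adjusted p = 0.183, interval 0.03 to 0.92), and it passed without double null replicate 2, the lowest of its group, at 0.66 (adjusted p = 0.0168). For myo2 it was 0.26 ± 0.14 (adjusted p = 0.288, interval -0.04 to 0.56). The other 8 values lay between -0.12 for rlc1 and 0.13 for imp2. Intervals were wide for all 10 genes, with that of cdc15 running from -0.26 to 0.32 and that of rng2 from -0.37 to 0.48.

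**Figure D4:**
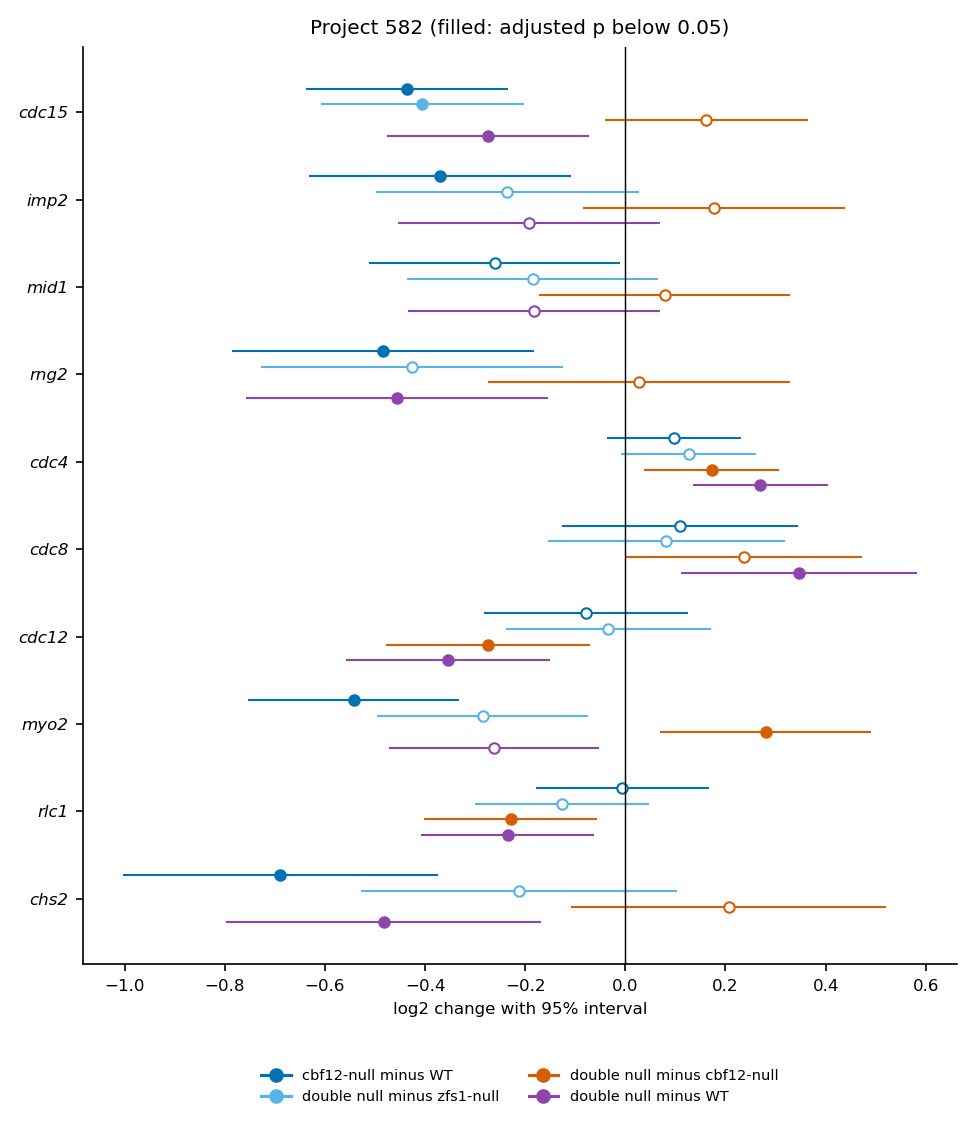
Log2 change of each gene (x axis) with 95% intervals in 4 comparisons between the strains of project 582. Filled points have an adjusted p below 0.05. The points of cbf12-null against WT for chs2, myo2, rng2, cdc15 and imp2 are filled and left of 0, and cdc4 has filled points right of 0 for the double null against the cbf12-null samples and against WT.

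Ranked by mean log2 signal over the 8 groups, the members differed in which strains and projects stood at the ends. Neighbours in such an order were taken as apart where the log2 mean minus the SD of the higher group lay above the log2 mean plus the SD of the lower. For cdc15 the order was zfs1-null 582 (957 ± 46.8), WT 582 (873 ± 39.7), zfs1-null 529 (790 ± 71.5), zfs1-null 488 (734 ± 36.4), double null (726 ± 92.1), cbf12-null (646 ± 31.9), WT 488 (644 ± 47.3) and WT 529 (543 ± 52.8), as signal ± SD. Of its 7 neighbouring pairs, 1 was apart, that of the WT groups of projects 488 and 529. The range from end to end was 1.77-fold for cdc15, 2.01-fold for imp2, 1.92-fold for rng2, 1.81-fold for myo2 and 1.76-fold for chs2. It was 1.62-fold for cdc12, 1.41-fold for cdc8, 1.31-fold for mid1, 1.28-fold for rlc1 and 1.21-fold for cdc4.

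The cdc12 order ran WT 582 (699 ± 53.4), WT 488 (689 ± 28.4), cbf12-null (661 ± 44.6), zfs1-null 582 (559 ± 21.5), double null (547 ± 45.2), zfs1-null 488 (505 ± 20.0), WT 529 (487 ± 34.3) and zfs1-null 529 (431 ± 22.7), as signal ± SD. Its 1 pair apart separated the cbf12-null from the zfs1-null samples of project 582. Within each project the strains with zfs1 lay above those without it. Samples of project 529 were low in both strains, so WT 529 ranked below the groups without zfs1 of the other projects. For cdc4 no neighbours were apart, and the 4 groups without zfs1 filled the 4 highest places, from 2904 ± 78.5 in double null to 2660.4 ± 67.4 in zfs1-null 582. For myo2 the double null (554 ± 32.8) was apart from the cbf12-null samples (457 ± 50.8), which were the lowest of the 8 groups. For rng2 and imp2 the WT samples of project 529 were the lowest, at 278 ± 16.6 and 496 ± 29.5. For mid1, cdc8 and chs2 no neighbours were apart. These orders depend in part on the scaling. The pairs apart went from 0 to 1 for mid1 under equal medians and quantile normalisation and for cdc4 under equal medians. They went from 2 to 4 for imp2 and from 1 to 2 for rng2 under equal medians, and from 2 to 3 for myo2 under both. For cdc15 they went from 1 to 0 under both, and for cdc12 from 1 to 0 under quantile normalisation. The lowest group of rng2 became cbf12-null and the highest of cdc12 became WT 488 under both. Under quantile normalisation, the lowest group of cdc4 and the highest of rlc1 became WT 529.

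Other genes of ring assembly and division were taken from lists drawn up by function. Beside the counts below, 23.4% of all genes were called higher and 18.3% lower with loss of zfs1. With loss of cbf12, 9.18% of all genes were called higher and 18.9% lower, and the median over all genes was -0.07. For zfs1 by project, 9.87% of all genes were called higher and 9.8% lower in project 488. The shares were 25.7% and 16.5% in project 529, and 4.14% and 7.14% in project 582. Of 21 further node and ring genes, 7 rose and 1 fell with loss of zfs1, with a median of 0.06, and 13 did not pass. By project, 4 rose and 2 fell in project 488, 10 rose in project 529 and 1 rose in project 582. The gene that fell in the combined comparison was rng3, by 0.13. Beside for3, the kinase genes pom1 and cdr2, which help to set the time and place of division, rose by 0.25 ± 0.09 and 0.23 ± 0.05 (adjusted p = 0.0201 and 0.00095 with limma). With loss of cbf12, 2 of the 21 rose and 8 fell, with a median of -0.21. The gene of the myosin chaperone Rng3, which folds Myo2, rose by 0.92 ± 0.10 (adjusted p = 6.2e-06 with limma), the profilin gene cdc3 rose by 0.30, and klp8, a kinesin gene, fell by 0.72 ± 0.12 (adjusted p = 0.00044). The rng3 signal was 537 ± 9.92 in WT, 465 ± 0.80 in zfs1-null, 1015 ± 53.2 in cbf12-null and 615 ± 92.6 in double null samples of project 582 (SD, n = 3 each). The cbf12-null samples stood above all others, while the signal of myo2, whose product Rng3 serves, was lowest in the same samples. Of the 5 septin list genes (spn1, spn2, spn3, spn4 and the anillin-like mid2), 5 rose with loss of zfs1, by 0.07 for spn3 to 0.19 for spn1. By project, 0 of the 5 were called in project 488, 3 rose in project 529 and 0 were called in project 582. With loss of cbf12, 1 of the 5, mid2, fell by 0.47 ± 0.10 (adjusted p = 0.00248 with limma). Septins form rings that flank the septum.

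The septation initiation network (SIN) is the kinase pathway that triggers ring closure and septum formation. Of its 15 genes listed here, 7 rose and 1 fell with loss of zfs1 (23.4% and 18.3% of all genes), with a median of 0.11, and the gene that fell, dma1, fell by 0.11. By project, 1 of the 15 rose in project 488 and 9 in project 529, and in project 582 no gene of the list passed limma's test. Of all genes, 9.87%, 25.7% and 4.14% were called higher in projects 488, 529 and 582, and 9.8%, 16.5% and 7.14% lower. The largest combined rises were those of the spindle pole scaffold gene ppc89 at 0.33 ± 0.05 (adjusted p = 2.4e-06 with limma), of cdc14, a partner of the kinase Sid1, at 0.30 ± 0.04 (adjusted p = 3.2e-06), and of the kinase gene sid2 at 0.25 ± 0.05 (adjusted p = 0.00035). With loss of cbf12, 0 rose and 3 fell, among them mob1, a partner of Sid2, by 0.38 ± 0.10 (adjusted p = 0.0109 with limma) and the scaffold gene cdc11 by 0.31 ± 0.10 (adjusted p = 0.0297). The median of the list was then -0.06, beside -0.07 over all genes, of which 9.18% were called higher and 18.9% lower. Of 16 actin patch genes, 3 rose with loss of zfs1, crn1, acp1 and acp2, by 0.16, 0.12 and 0.11, with a median of 0.05, a share below the 23.4% of all genes called higher. With loss of cbf12, acp2 of the 16 rose by 0.19 and 3 fell, vrp1 by 0.65, shd1 by 0.46 and end4 by 0.38, with a median of -0.07.

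Some genes whose transcripts peak in mitosis or at the start of S phase were also called. Beside the counts below, 23.4% of all genes were called higher and 18.3% lower with loss of zfs1. With loss of cbf12 the shares were 9.18% and 18.9%, and the median over all genes was -0.07. For zfs1 by project, 9.87% of all genes were called higher and 9.8% lower in project 488. The shares were 25.7% and 16.5% in project 529, and 4.14% and 7.14% in project 582. Under equal array medians the cbf12 calls over all genes turned to 434 higher and 272 lower, and the list counts below are of the main fit. Of 5 mitotic transcripts, 4 rose with loss of zfs1, with slp1, an activator of anaphase, at 0.55 ± 0.06 (adjusted p = 8.6e-09 with limma), spo12 at 0.43 ± 0.10 (0.00080) and sid2 at 0.25 ± 0.05. By project, 1 of the 5 rose in project 488, 5 in project 529 and 1 in project 582. The test of the difference between projects called 3 of the 5, beside 19.7% of all genes. With loss of cbf12, 2 of the 5 fell, slp1 by 0.44 ± 0.08 (adjusted p = 0.00077) and the polo kinase gene plo1 by 0.31 ± 0.10 (0.0255). Of 3 transcription factor genes of mitosis, sep1 rose with loss of zfs1 by 0.15 ± 0.06 (adjusted p = 0.0266), and mbx1 fell with loss of cbf12 by 0.67 ± 0.08 (adjusted p = 2.1e-05). Of 9 genes of the start of S phase, 3 rose with loss of zfs1, cig2 at 0.55, yox1 at 0.46 and cdc18 at 0.43, and mrc1 fell by 0.15, with a median of 0.07. The projects differed, with 1 rise and 3 falls in project 488, 6 rises in project 529 and 1 rise in project 582. The test of the difference between projects called 6 of the 9, beside 19.7% of all genes. With loss of cbf12, 6 of the 9 fell, led by cdt1 at -0.48 and mrc1 at -0.46, with a median of -0.37. Of 4 cell separation genes, whose products digest the septum, 0 passed with loss of zfs1 and 4 fell with loss of cbf12, led by adg2 at -0.78 and the glucanase gene eng1 at -0.69. Their medians were 0.12 and -0.66, and 0 of 4 with limma for zfs1 stands beside 3 rises in project 529 and 2 falls in project 488. The part of cell cycle stage in the values of the ring genes was not tested.

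**Figure D5:**
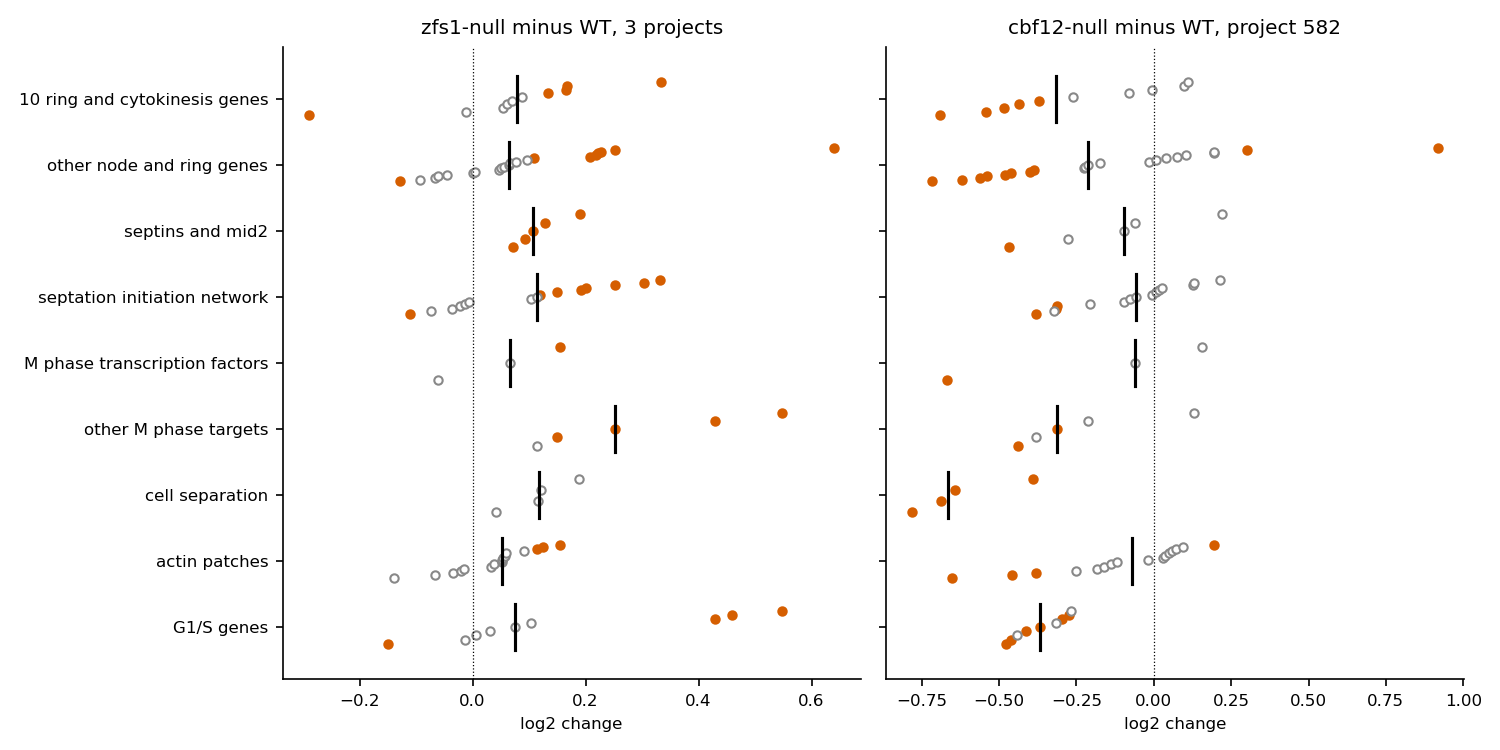
Log2 change of single genes (x axis) in the 10 ring and cytokinesis genes and 8 related lists (rows), for zfs1-null against WT over 3 projects (left) and cbf12-null against WT in project 582 (right). Filled points have an adjusted p below 0.05 and black bars are list medians. The filled cell separation points all lie left of 0 on the right side, and the filled septin points right of 0 on the left side.

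Likeness of pattern was described by Pearson's r of log2 signal over the 28 arrays, after the mean of the WT and zfs1-null samples of each project was subtracted. The arrays share strains, scaling and project, so r is given as a description. The genes most like cdc15 were spo6 (r = 0.91), ark1 (0.90) and cut14 (0.90). The nearest to imp2 were scw1 (0.90), taf12 (0.89) and sad1 (0.88), and the nearest to cdc4 were htb1 (0.87), mog1 (0.87) and cdc42 (0.84). Of the 45 pairs of members, rng2 with myo2 (r = 0.87) and cdc15 with myo2 (0.84) were the most alike. With group means removed, r was 0.65 for rng2 with myo2 and 0.49 for cdc15 with myo2. The least alike were cdc4 with cdc12 (r = -0.67) and cdc8 with chs2 (-0.57). With group means removed, the first went to -0.05, so it lay between groups, and the second to -0.71, so it also held between arrays of a group.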

How the data were processed

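RNA of 28 samples was hybridised to Affymetrix arrays with probe sets for both fission and budding yeast. The deposited values are linear signal intensities, 1 per probe set and array, made by the authors with MAS5, per the submitters' processing notes; no version or setting is given in the sources used here. The trimmed mean of every array, with 2% left out at each end, was 500.1 to 500.2, so arrays had been scaled to 1 level, and the number of arrays limits the precision. Of 10928 probe sets, 5538 were listed in the platform annotation, of which 2917 named a single fission yeast gene, 20 named several genes and 2601 belonged to the other species. Symbols were updated through RefSeq's ASM294v3 gene table for 113 of them, and 2899 genes remained, each represented by its brightest probe set.

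Log2 signals were tested with limma 3.58.1 in R 4.3.3 (lmFit, eBayes with an intensity trend), with project as a term for the combined zfs1 comparison and a 4-strain fit in project 582. P-values were adjusted by Benjamini-Hochberg over all 2899 genes, with a threshold of 0.05. The fits were checked on simulated data without shifts between projects, whose changes were larger than that of any member here. That check therefore does not cover changes of the members' size. The alternatives were other scalings, filters, offsets, priors, sets of samples and a replicate block, and each sample was left out in turn. Replicate numbers in the labels were not taken to pair samples, since the labels do not state a pairing. The correlations of same-numbered samples, given below, do not settle it.

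The 10 members were described in every comparison. From each list of related genes, up to 3 genes with the largest change among those called in the combined comparison were named, and up to 2 in the cbf12 comparison. The genes rng3, dma1, mrc1, cdc3, acp2, end4 and mam1 were named outside that rule, after their values were seen, to complete small counts. The receptor genes map3 and mam2 were set to the P and M cell lists, whose cells express them, after their values were seen. The members and lists were chosen with earlier results of these data known. Sequences were not used here.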

Additional observations from a re-analysis of the deposited data

Results flagged for a closer look

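In 3 of 20 tests of groups of 5 samples, a single sample lay apart from the rest by Dixon's criterion, which compares the gap to its neighbour with the range of the group. Chance gives such a flag in about 1 of 20 groups. The myo2 signal of WT replicate 4 in project 529 was the lowest of its group, with a gap of 0.731 of the range. In zfs1-null replicate 5 of project 529, cdc4 was the highest of its group (0.768 of the range) and cdc12 the lowest (0.788). With limma's F test, the effect of the loss of zfs1 differed between projects for cdc15 (adjusted p = 0.0155), cdc8 (adjusted p = 0.0299) and imp2 (adjusted p = 0.0490).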

How the results depend on the processing

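All counts here are of members called with limma at an adjusted p below 0.05. The combined zfs1 comparison called 5, and 3 without a term for project, and 4 to 5 with 1 sample left out. With a replicate block it called 4 (rng2 lost, adjusted p = 0.0595), project 488 called 2 in place of 1 (cdc8 added, 0.0376), and cdc4 was lost for zfs1 without Cbf12 (0.0591). The block changed no other call. The numbers were not taken to pair samples. Same-numbered samples had correlations from -0.06 to 0.16 in project 488, -0.05 to 0.14 in project 529 and -0.30 to 0.31 in project 582, and in 26 of 52 checks a sample correlated best with its own number, where equal chances would give 16. In project 529, 4 of 5 same-numbered pairs exceeded every other pair. This is a hint from the data, not from the design. Project 582 called 1 for zfs1, and 0 under equal array medians, quantile normalisation and all probe sets, where 3, 1 and 2 had an unadjusted p below 0.05. The difference between projects called 3, and 0 under quantile normalisation (4 unadjusted). Loss of cbf12 with Zfs1 called 5, and 2 with the WT level estimated from other samples. Loss of zfs1 without Cbf12 called 4, then 1 under quantile normalisation and 0 with all probe sets (5 unadjusted). The double null against WT called 7, then 5 under equal array medians (5 unadjusted) and 5 with all probe sets (8 unadjusted). It called 0 under quantile normalisation (2 unadjusted) and 2 with the estimated WT level, where cdc15 and chs2 turned to 0.0030 and 0.0087. The cause of these changes was not tested, apart from all probe sets, which adjusts over 10928 in place of 2899.

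Leaving out 1 sample gave 1 to 2 calls in project 488, 6 to 9 in project 529 (7 with all), 0 to 1 in project 582, 1 to 4 between projects, 3 to 6 for cbf12 with Zfs1, 0 to 1 for cbf12 without Zfs1, 0 to 5 for zfs1 without Cbf12, 3 to 8 for the double null and 0 to 1 for the interaction. In project 488 the count was 2 without WT replicate 3. In project 582 it was 0 for zfs1 without WT 1 or 2, zfs1-null 2 or 3, or cbf12-null 1 or 2. For cbf12 with Zfs1 it was 3 without WT 2 or cbf12-null 1 or 3, and for the double null 3 without WT 2 or double null 2 and 4 without WT 3. For zfs1 without Cbf12 it was 0 without cbf12-null 1, and 1 or 2 without WT 2, any zfs1-null sample, cbf12-null 2 or 3, or double null 1 or 3. Between projects it was 1 without WT 2 of project 488, WT 4 or 5 or zfs1-null 5 of project 529, or zfs1-null 2 or 3 of project 582.

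Over all genes, leaving out WT 1, WT 2 or zfs1-null 1 gave 323, 312 and 375 calls in place of 570 in project 488. For zfs1 in project 582, 327 calls became 183 without zfs1-null 2, 194 without zfs1-null 3 and 544 without double null 2. For cbf12 without Zfs1, 261 became 156, 120 and 150 without zfs1-null 1, 2 and 3 and 446 without double null 1, and for cbf12 with Zfs1, 815 became 490 without cbf12-null 3. No project term gave 481 calls in place of 1207. Quantile normalisation gave 321 in place of 571 between projects and 601 in place of 1018 for the double null. All probe sets gave 1876 in place of 1207 combined, 864 of 570 in project 488, 1861 of 1223 in project 529, 511 of 327 in project 582, 1249 of 815 and 481 of 261 for cbf12 with and without Zfs1, 1505 of 980 for zfs1 without Cbf12, 1547 of 1018 for the double null and 510 of 283 for the interaction. The share of called genes that were higher moved under equal array medians from 61.0% to 39.9% in project 529, 32.6% to 61.5% and 36.0% to 55.7% for cbf12 with and without Zfs1, 44.0% to 63.2% for the double null and 44.9% to 34.7% for the interaction. Under quantile normalisation it moved from 36.7% to 47.6% in project 582, and to 47.4% and 54.9% for cbf12 with and without Zfs1.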
